A study of Mus musculus with 7 samples.

Results

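The microRNAs described here are the 110 remaining expressed microRNAs of a mouse heart preparation, those outside the families best known from cardiac stress, hypoxia and blood. Members were the rows of type miRNA with a symbol starting Mir and at least 70 raw counts summed over 7 libraries. Of 2202 microRNA rows among 49584 features, 383 had a count and 137 with such a symbol reached that sum. A further 27 of these were left out by name: the let-7, miR-30, miR-29, miR-126 and miR-199a genes and single genes such as Mir21a, Mir210, Mir451a, Mir142, Mir208a, Mir208b and Mir499. The members were thus chosen by their summed counts, and their abundance is a description. Just inside the threshold were Mir542 with 70 counts, Mir582 with 71 and Mir3057 with 72, and just outside it were Mir6238 with 67, Mir673 with 63 and Mir184 with 62.

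Small RNA of crude heart mitochondria was sequenced from 3 control libraries (Tefm +/+) and 4 knockout libraries (Tefm -/-). Both groups carried Tefm with an exon between loxP sites (L/L), and the knockouts also had cre driven by the muscle creatine kinase promoter, which acts in cardiomyocytes and skeletal muscle and leaves other heart cells unrecombined. Tefm encodes the elongation factor of mitochondrial transcription, and the comparison asked how RNAs of the preparation differ without it. The design text counts 4 control mice, of which 3 libraries were analysed here, and the labels give no age or strain. Each library was taken as 1 mouse, and if some share a mouse, the tests see technical spread only.

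Libraries held 973835 to 2570739 counts, of which 22486 to 251172 fell in microRNA rows, 1.93% to 19.3% of a library. Reads of Tefm itself numbered 0, 2 and 1 among controls and 0, 1, 0 and 2 among knockouts, too few to check the labels. Values are therefore given as shares of a library's microRNA counts, which compare microRNAs with one another and not with other RNA. A row named Snord43, a small nucleolar RNA that the table types as miRNA, is in that total with 3.27% to 8.58% in controls and 5.90% to 7.69% in knockouts. Control 1 and knockout 2 supplied 60.2% of the members' counts. In tissue of mixed cells, fewer cells of a type and less of a microRNA per cell cannot be told apart.

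MicroRNAs are short RNAs cut from hairpin precursors by Drosha and Dicer and loaded into Argonaute proteins, where they pair with messenger RNAs and lower their translation and stability. Pairing rests mainly on the seed, bases 2 to 8 of the mature strand, so microRNAs with the same seed are taken to share many targets. In the heart, cardiomyocytes, vascular smooth muscle, endothelium and fibroblasts each contribute their own set. MicroRNAs act in the cytosol, where several have also been reported in or on mitochondria, and a crude mitochondrial pellet carries cytosol and membranes along.

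RefSeq gave a mature sequence for 101 of the 110 members (build GRCm38.p6), and 14 seeds were shared by members. The deposited counts are per gene and do not separate the strands of a hairpin. The sequences shown are those of the seed groups that the comparison turns on and of 6 single members that passed its threshold and are described with it, with the seed in capitals. The lines start with miR-148 and miR-152 and go on to miR-221 and miR-222, then come miR-708 with miR-28a, miR-301a with miR-130, and miR-181. The last lines hold members whose seed no other member shares among the sequences at hand.
miR-148a-3p: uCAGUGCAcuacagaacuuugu
miR-148b-3p: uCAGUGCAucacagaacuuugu
miR-152-3p: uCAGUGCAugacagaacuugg
miR-221-3p: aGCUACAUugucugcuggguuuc
miR-222-3p: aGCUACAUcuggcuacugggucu
miR-708-5p: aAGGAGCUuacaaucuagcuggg
miR-28a-5p: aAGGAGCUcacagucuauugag
miR-301a-3p: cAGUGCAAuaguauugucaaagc
miR-130a-3p: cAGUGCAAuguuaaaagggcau
miR-130b-3p: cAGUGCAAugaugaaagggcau
miR-181a-5p: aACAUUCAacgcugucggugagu
miR-181c-5p: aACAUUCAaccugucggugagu
miR-107-3p: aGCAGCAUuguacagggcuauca
miR-27b-3p: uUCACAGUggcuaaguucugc
miR-34a-5p: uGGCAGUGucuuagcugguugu
miR-98-5p: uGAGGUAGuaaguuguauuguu
miR-146a-5p: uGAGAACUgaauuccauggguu
miR-26b-5p: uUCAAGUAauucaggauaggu

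The members made up most of the microRNA pool in both groups, and a few of them made up most of that. Their summed share was 73.4%, 74.4% and 74.2% in controls 1 to 3 and 69.3%, 71.9%, 71.2% and 72.3% in knockouts 1 to 4, so every knockout library lay below every control (74.0% ± 0.531, SD, n = 3, against 71.2% ± 1.32, n = 4). With Mir143 left out of the members but kept in the total, the order turned round, at 42.2% ± 3.80 in controls and 49.5% ± 1.73 in knockouts. A lower share of Mir143 by itself raises the other shares. With Mir143 out of the total as well the gap was smaller, and it is given below with the dependence on processing. The top 5 members held 52.2% ± 2.71 of the pool in controls and 47.8% ± 2.76 in knockouts. In all, 11 members averaged at least 1% of microRNA counts, 32 lay between 0.1% and 1%, and 67 below 0.1%; 106 had a count in every library.

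Mir143 was the most abundant member. It is made with Mir145a from 1 precursor and is best known from vascular smooth muscle. It held 32.0%, 28.0% and 35.3% of microRNA counts in controls 1 to 3 and 21.8%, 21.7%, 19.7% and 23.7% in knockouts 1 to 4. The lowest control stood above the highest knockout.

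Mir27b, which lies beside Mir23b on chromosome 13 and is linked to angiogenesis and lipid metabolism, came second. Its shares were 8.02%, 8.73% and 7.81% in controls and 9.54%, 14.0%, 14.0% and 10.02% in knockouts, again without overlap but in the other direction. Mir378a, which sits in an intron of the coactivator gene Ppargc1b and is rich in heart and skeletal muscle, came next. It held 6.57%, 6.48% and 6.39% in controls and 4.73%, 7.95%, 6.28% and 6.14% in knockouts, so its knockout libraries lay on both sides of the controls. Mir148a followed, and its mean share was 2.18% ± 0.331 in controls and 4.83% ± 0.633 in knockouts.

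Among the next members, the Hox cluster microRNAs Mir10b and Mir10a averaged 3.59% ± 0.466 and 3.61% ± 0.615 in controls and 3.13% ± 0.819 and 2.76% ± 0.59 in knockouts, with overlapping libraries. Mir151 was nearly level, at 1.97% ± 0.0657 and 1.98% ± 0.293. Mir99b and the imprinted Mir127 also overlapped, at 1.70% ± 0.161 against 1.86% ± 0.588 and at 0.975% ± 0.0991 against 1.16% ± 0.129. The plot of the 12 most abundant members shows these patterns library by library.

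**Figure D1:**
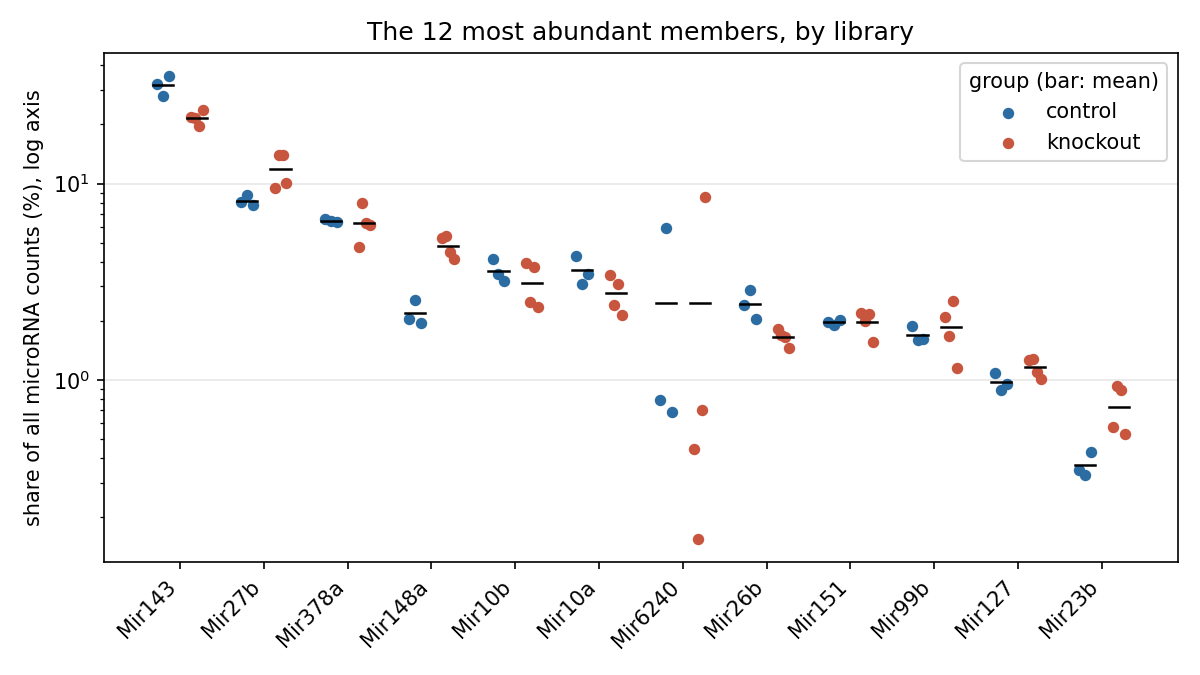
Share of all microRNA counts (percent, log axis) of the 12 most abundant members, with 1 point per library (3 controls, 4 knockouts) and a black bar at each group's mean. Mir143 and Mir26b lie lower and Mir27b, Mir148a and Mir23b higher in all knockout libraries, while Mir6240 spans 0.154% to 8.59% within the knockouts.

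The comparison between groups was made in a pair of fits. In the first, all features with enough counts were tested together on the scale of microRNA counts, and 0 of 1505 features (0%) passed an adjusted p of 0.05 in edgeR's quasi-likelihood test with Benjamini-Hochberg adjustment. Among the 105 members tested, 0 passed there, 7 had an unadjusted p under 0.05, and the lowest adjusted p was 0.975. A p above the threshold there does not show that the groups were alike. DESeq2 on the same scale called 4 features (0.266%), of which 1 was a member, Mir708 (adjusted p = 0.00662). The second fit took the 136 microRNA rows alone, with the same scale and test. It called 41 of the 136 rows (30.1%), and 31 of the 105 members tested, which is close to that background. Standard errors differed between the fits: that of Mir143 was 0.50 among all features and 0.11 among microRNA rows.

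The words rose and fell are used only of members past that threshold in the fit to microRNA rows, and log2 fold changes are knockout over control, with standard errors, from that fit. Of the 31 members, 27 rose and 4 fell, against 25.7% and 4.41% of all 136 rows. The median log2 fold change was 0.37 over the members tested and 0.44 over all microRNA rows tested. Scaling instead by TMM factors over microRNA rows, an alternative added after the data were seen, moved the median over all rows to 0.06 and changed the split to 15 up and 14 down among members (14% and 13.2% of rows, 27.2% together), with 19 of the 31 in common. With Mir143 left out of the total, also added after the data were seen, 19 members were called up and 6 down (16.9% and 7.35% of rows, 24.3% together). Over all features with a covariate for library composition (microRNA plus snoRNA against protein-coding counts), 25 members were called up and 3 down, 28 in all, where 19.3% and 5.12% of features were (24.5% together), and 26 of them were among the 31. TMM scaling over all features called 105 features (6.98%) and 0 members, and scaling by total counts 11 (0.731%) and 1 member. Mir143 alone held 26.0% of the pool on average, and small changes are to be read against the total in use.

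Shares that did not overlap between the groups gave a like picture. The lowest knockout exceeded the highest control in 34 members, where 32.4% of all microRNA rows tested did so. The highest knockout lay under the lowest control in 7, where 7.35% of rows did. The remaining 69 members overlapped, and all 31 that passed the fit were among those without overlap. Mir708, Mir298 and Mir1983 reached the threshold on summed counts mainly through the knockouts, so their entry already favoured a difference. The same holds for others, such as Mir193b with 19 counts in controls and 72 in knockouts, and Mir582 with 13 and 58. In all, 9 members had under 30 counts in controls.

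**Figure D2:**
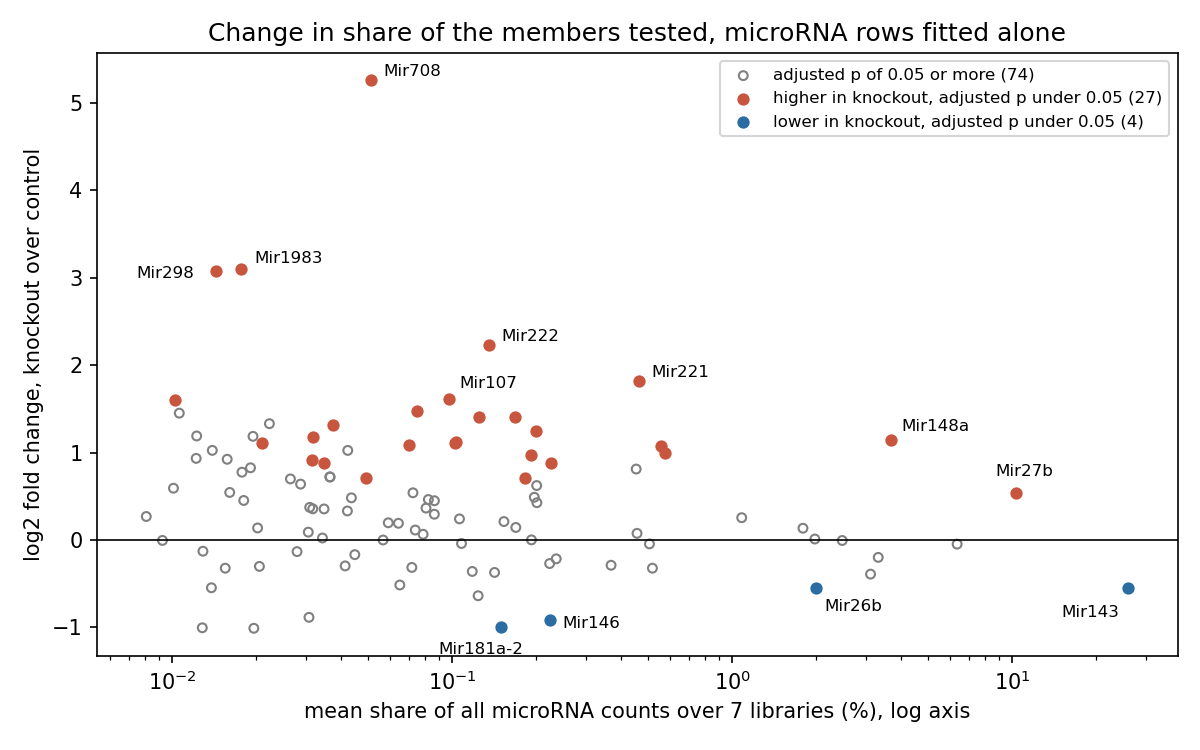
Log2 fold change of the share (knockout over control, fit to microRNA rows) of the 105 members tested against their mean share over 7 libraries (percent, log axis), filled where the adjusted p was under 0.05. The 27 higher members include Mir708 at 5.26 and Mir27b at 0.54, and the 4 lower ones are Mir143, Mir26b, Mir146 and Mir181a-2.

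Mir708 stood furthest from the other members. It lies at chr7:96249424-96249532 on the plus strand (GRCm38), in an intron of Tenm4, a transmembrane protein of cell adhesion. Controls 1 to 3 held 7, 0 and 2 counts, or 0.00294%, 0% and 0.00207% of microRNA counts, and the 0 in control 2 allows a share of up to 0.00605%. Knockouts 1 to 4 held 60, 276, 72 and 17 counts, or 0.0738%, 0.110%, 0.0953% and 0.0756%. All 4 knockout libraries therefore lay far above all 3 controls, and the knockout values were close to one another.

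With counts pooled within each group and set against the group's pooled microRNA counts, the ratio for Mir708 was 42.2. Its exact 95% interval of 21.996 to 92.8 covers counting error only, and the deepest libraries weigh most in it. Mir708 rose with a log2 fold change of 5.26 ± 0.38 (adjusted p = 2.78e-05, edgeR). It was called in all 14 alternatives of this fit, which were added after the data were seen, between 4.91 and 5.94. In the authors' deposited table, 1 of the 110 members had an adjusted p under 0.05, where 4.8% of the 4105 features with one did, and it was Mir708, at a log2 fold change of 2.48 and an adjusted p of 0.0428. All of these rest on the counts that brought Mir708 over the member threshold, mainly through the knockouts, and are not separate support. The Tenm4 row had 1 count in controls and 77 in knockouts, 55 of them in knockout 4, and did not reach the minimum for a test. Mir28a, whose 5p strand has the same seed, was at 0.111% ± 0.00521 and 0.106% ± 0.0155, with a log2 fold change of -0.04 ± 0.18.

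The pair Mir221 and Mir222 is cut from 1 transcript on the X chromosome (chrX:19146294-19146971, minus strand, outside any annotated gene), and both share a seed. The pair is known for lowering the cell cycle inhibitor p27 and for roles in endothelium, smooth muscle and cardiac growth. Mir221 held 0.169%, 0.183% and 0.221% in controls and 0.802%, 0.690%, 0.694% and 0.503% in knockouts. Mir222 held 0.0378%, 0.0464% and 0.0496% in controls and 0.247%, 0.263%, 0.201% and 0.102% in knockouts. Every knockout library was above every control for both, and knockout 4 was the lowest of its group in each.

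Mir221 rose by 1.82 ± 0.24 (adjusted p = 0.00128, edgeR) and Mir222 by 2.23 ± 0.32 (adjusted p = 0.00152, edgeR), and both were called in all 14 alternatives. Together they went from 0.236% ± 0.0325 to 0.876% ± 0.191 of the pool. The log2 ratio of Mir221 to Mir222 within a library was 2.09 ± 0.11 in controls and 1.79 ± 0.36 in knockouts, with overlap.

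The miR-148 and miR-152 group had the widest rise in percent of the pool among the seed groups with a called member, nearly all of it from Mir148a. Members of this group target the DNA methyltransferase Dnmt1 and, for miR-148a, lipid receptors in liver. Mir148a (chr6:51269812-51269910, minus strand, outside any annotated gene) held 2.04%, 2.56% and 1.94% in controls and 5.29%, 5.43%, 4.48% and 4.12% in knockouts. Mir148b, in an intron of Copz1, held 0.125%, 0.123% and 0.155% in controls and 0.284%, 0.187%, 0.211% and 0.196% in knockouts. Mir152, in an intron of the paralogue Copz2, held 0.0639%, 0.0726% and 0.0661% in controls and 0.0886%, 0.0888%, 0.0940% and 0.102% in knockouts. None of the 3 overlapped between groups, and all were higher in the knockouts.

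Mir148a rose by 1.15 ± 0.18 (adjusted p = 0.00213, edgeR) and was called in all 14 alternatives. Mir148b rose by 0.71 ± 0.22 (adjusted p = 0.0350, edgeR) but was called in 6 of the 14, and lost, among others, without control 1, 2 or 3 and without knockout 3. Mir152 did not pass, at 0.46 ± 0.17 (adjusted p = 0.0599, edgeR). The 3 together went from 2.38% ± 0.323 to 5.14% ± 0.644 of microRNA counts.

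Mir107 and Mir301 were also higher in every knockout and called in all 14 alternatives. Mir107, in an intron of the pantothenate kinase gene Pank1 and tied to insulin and lipid handling, held 0.0479%, 0.0484% and 0.0382% in controls and 0.154%, 0.144%, 0.118% and 0.133% in knockouts. Mir301, in an intron of Ska2, held 0.0370%, 0.0444% and 0.0310% in controls and 0.123%, 0.0924%, 0.0900% and 0.107% in knockouts. For both genes the groups were far apart relative to the spread within each.

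Mir107 rose by 1.62 ± 0.20 (adjusted p = 0.00102, edgeR) and Mir301 by 1.47 ± 0.21 (adjusted p = 0.00152, edgeR). Mir130a and Mir130b, which share the seed of Mir301, did not pass, at 0.49 ± 0.37 and 0.70 ± 0.76. For these 2, knockout 1 held the top share (0.402% and 0.0775%) and the other knockouts lay within or below the range of the controls. Mir872, in an intron of Ift74, rose by 1.31 ± 0.24, from 0.0200% ± 0.00463 to 0.0507% ± 0.00837. Mir872, Mir98, Mir125b-2, Mir411, Mir541, Mir300 and Mir132 were named after their values were seen.

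Mir98 lies in an intron of Huwe1 beside a let-7 gene and carries the let-7 seed, though its name kept it among the members. It held 0.0946%, 0.113% and 0.131% in controls and 0.271%, 0.318%, 0.289% and 0.182% in knockouts, and rose by 1.25 ± 0.24 (adjusted p = 0.00563, edgeR). The tumour suppressor microRNA Mir34a, a target of p53 that has been studied in heart ageing, held 0.0639%, 0.0706% and 0.0506% in controls. It held 0.0984%, 0.135%, 0.165% and 0.138% in knockouts and rose by 1.13 ± 0.23 (adjusted p = 0.00721, edgeR). Both microRNAs had no overlap between groups, and the call of Mir34a was lost under TMM factors over microRNA rows alone among the 14 alternatives.

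Mir125b-2 and Mir99a lie in introns of the same non-coding host, Mir99ahg, on chromosome 16 and are linked to endothelial and muscle differentiation. Mir125b-2 held 0.0605%, 0.0766% and 0.0609% in controls and 0.157%, 0.210%, 0.218% and 0.0889% in knockouts, and rose by 1.40 ± 0.30. Mir99a went from 0.342% ± 0.0182 to 0.721% ± 0.289 and rose by 1.08 ± 0.32, with knockout 4 again nearest the controls. The call of Mir125b-2 held in all 14 alternatives and that of Mir99a in 7.

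Mir298 and Mir1983 had among the largest changes but few counts. Mir298 had 7, 0 and 4 counts in controls and 30, 52, 17 and 3 in knockouts. Its ratio of pooled counts, over pooled microRNA counts, was 8.28 (exact 95% interval 4.44 to 17.1). Mir1983 had 4, 2 and 6 counts in controls and 24, 76, 26 and 4 in knockouts, a ratio of 9.67 (5.35 to 19.2) by the same pooling. Both intervals cover counting error only and not the spread between libraries. Their fitted changes were 3.07 ± 0.53 and 3.09 ± 0.45. Both passed the low-count filter only through knockouts 1, 2 and 3, where they were high. With knockout 1, 2 or 3 left out, both dropped below the filter and were not tested, which the alternatives count as a lost call.

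Mir23b and Mir27b are neighbours at chr13:63300484-63300784 on the plus strand, in 2010111I01Rik. Mir23b held 0.347%, 0.329% and 0.429% in controls and 0.576%, 0.928%, 0.886% and 0.529% in knockouts and rose by 0.99 ± 0.27 (adjusted p = 0.0215, edgeR). Mir27b rose by 0.54 ± 0.17 (adjusted p = 0.0434, edgeR). Knockouts 2 and 3 were the high libraries for both, and the calls held in 8 and 5 of the 14 alternatives. The log2 ratio of Mir27b to Mir23b within a library was 4.48 ± 0.27 in controls and 4.05 ± 0.14 in knockouts, where knockout 4 (4.24) exceeded control 3 (4.19).

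The members that fell were Mir143, Mir181a-2, Mir146 and Mir26b. Mir143 fell by 0.55 ± 0.11 on the log2 scale (adjusted p = 0.00754, edgeR), a mean share of 21.7% ± 1.60 against 31.8% ± 3.61 in controls, 1.46 times higher in controls, and was called in 13 of the 14 alternatives. In percent of the pool this is the widest shift of any member. Its neighbour Mir145a held 0.146%, 0.165% and 0.175% in controls and 0.112%, 0.113%, 0.127% and 0.156% in knockouts; it did not pass, at -0.37 ± 0.19. The log2 ratio of Mir143 to Mir145a within a library, 7.61 ± 0.19 in controls and 7.42 ± 0.20 in knockouts, overlapped between the groups. Under TMM factors over microRNA rows Mir143 and Mir145a were both called down.

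Mir181a-2 (chr2:38852735-38852810, plus strand, opposite an intron of Nr6a1) had the controls closest together relative to their mean of all members. It held 0.210%, 0.212% and 0.211% in controls 1 to 3 and 0.112%, 0.115%, 0.111% and 0.0756% in knockouts 1 to 4. Members of the miR-181 group are known from vascular inflammation, and miR-181c has been reported inside heart mitochondria. Mir181a-2 fell by 0.996 ± 0.19 (adjusted p = 0.00563, edgeR) and was called in all 14 alternatives.

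Mir146, the gene of miR-146a, dampens signalling through the innate immune adaptors Irak1 and Traf6. It held 0.285%, 0.266% and 0.368% in controls and 0.113%, 0.216%, 0.189% and 0.125% in knockouts. Mir26b, in an intron of the phosphatase gene Ctdsp1, held 2.40%, 2.86% and 2.04% in controls and 1.83%, 1.69%, 1.66% and 1.45% in knockouts. In both, every control lay above every knockout.

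Mir146 fell by 0.91 ± 0.27 (adjusted p = 0.0321, edgeR) and Mir26b by 0.55 ± 0.18 (adjusted p = 0.0441, edgeR). The first was called in 7 of the 14 alternatives, and the second in 5 and in none of the 7 that left out a library. Mir378d and Mir674 were lower without overlap and did not pass, at -0.51 ± 0.20 and -0.30 ± 0.19.

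**Figure D3:**
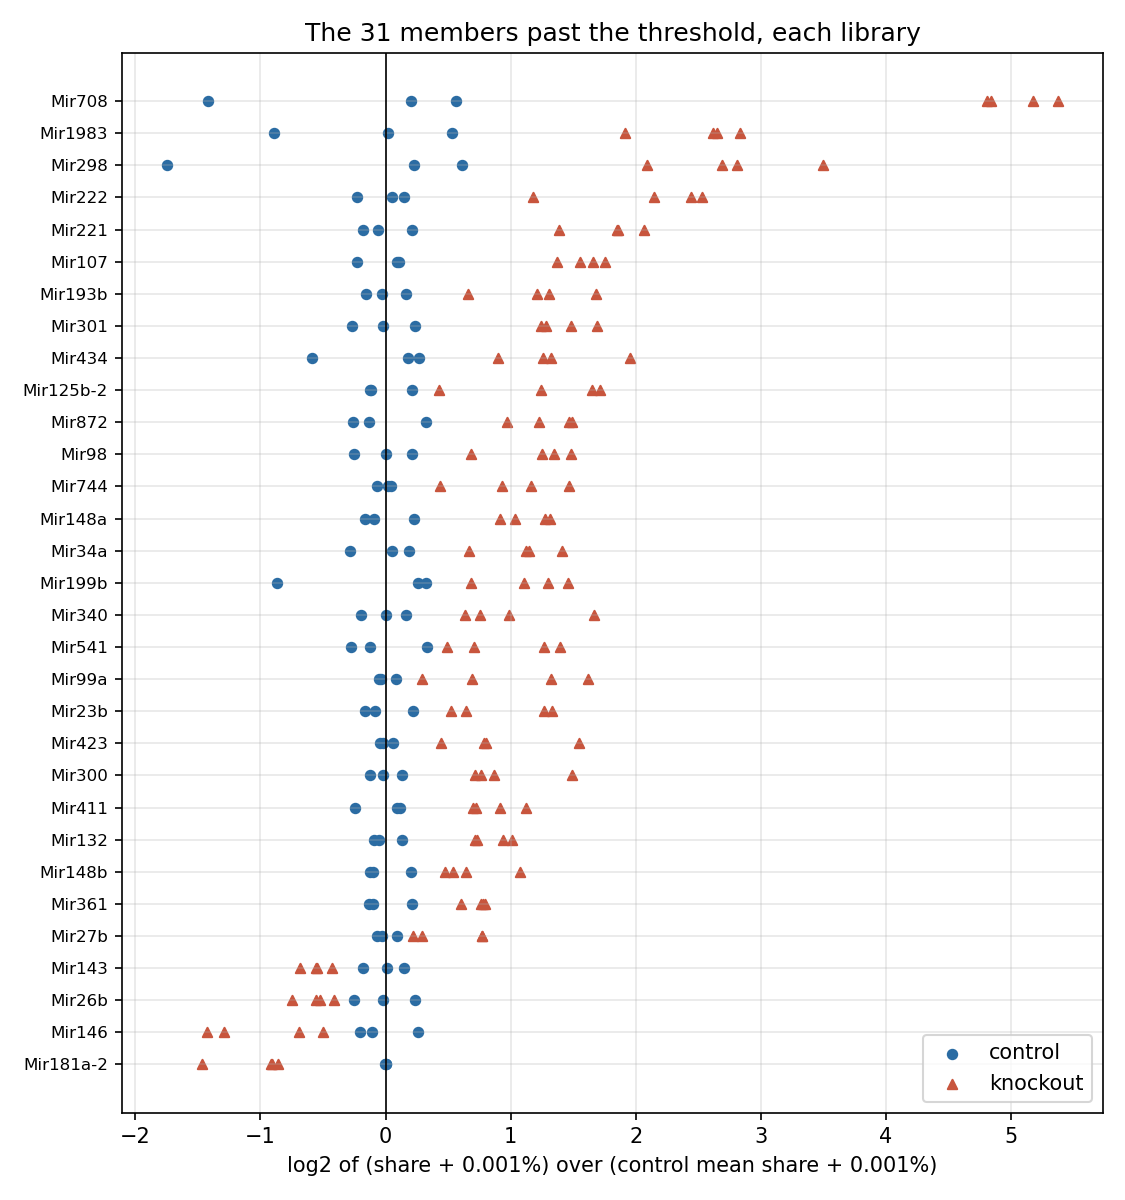
Each library's share relative to the control mean (log2, after adding 0.001% to both) for the 31 members past the threshold in the fit to microRNA rows, controls as circles and knockouts as triangles. The triangles of Mir708 lie furthest from the controls, and Mir143, Mir26b, Mir146 and Mir181a-2 are the members that fell.

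Few seed groups had all their members called. In the group of Mir15a, Mir15b, Mir16-1, Mir16-2, Mir322 and Mir497, known for restraining the cell cycle of cardiomyocytes after birth, 0 of 6 members passed and changes ran from 0.00 to 0.45. All 6 were positive against the microRNA total, but 2 were so under TMM factors over microRNA rows and 4 without Mir143 in the total. The group's summed share was 0.519% ± 0.0119 in controls and 0.582% ± 0.126 in knockouts.

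In the miR-181 group, Mir181a-2 was the 1 of 5 members that passed. Mir181b-2, cut from the same locus, had -1.004 ± 0.54 and 1 to 29 counts a library. Mir181a-1 encodes the same miR-181a-5p strand as Mir181a-2 from chromosome 1, and its log2 fold change was 0.14 ± 0.31. The labels do not say how reads of that shared strand were divided between both genes. Mir181c held 0.491%, 0.5001% and 0.558% in controls and 0.600%, 0.412%, 0.535% and 0.454% in knockouts, with a log2 fold change of -0.04 ± 0.21, and Mir181d had -0.31 ± 0.19. Under TMM factors over microRNA rows 0 of the 5 members were called up and 2 down.

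Of Mir99a, Mir99b and Mir100, which share a seed, Mir99a was the 1 that passed, while Mir99b was at 0.13 ± 0.26 and Mir100 at -0.32 ± 0.24. Mir10a and Mir10b, with another common seed, were at -0.39 ± 0.21 and -0.20 ± 0.23, and neither passed. Under TMM factors over microRNA rows 1 of these 2 was called down. With those factors 0 of Mir99a, Mir99b and Mir100 were called up and 1 down. Of Mir125b-2 and Mir351 the first passed. Thus 2 seed groups had every member called, Mir221 with Mir222 and, by their 5p strands, Mir148a with Mir148b. Under TMM factors over microRNA rows the first kept both calls and the second 1 of 2.

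**Figure D4:**
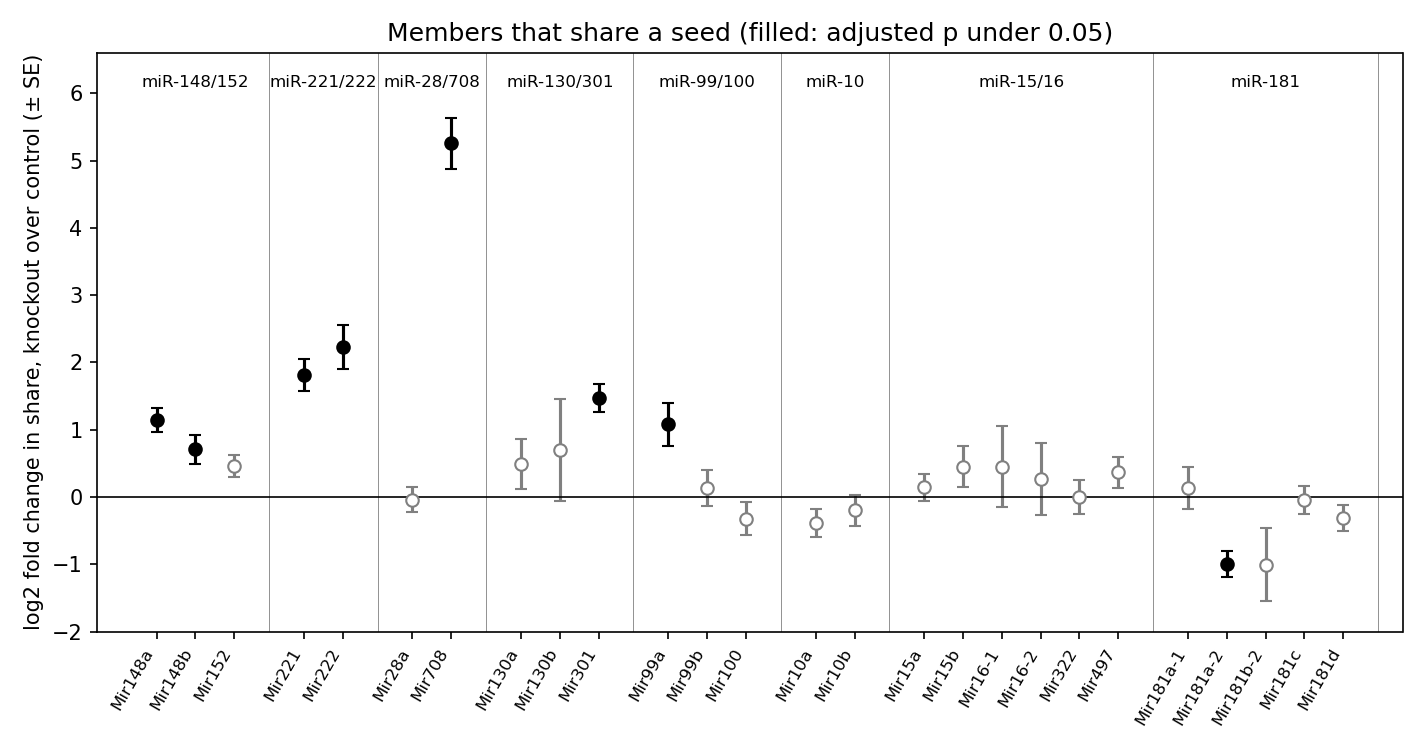
Log2 fold change in share (knockout over control, fit to microRNA rows) with its SE for members of 8 seed groups, filled where the adjusted p was under 0.05. Mir28a lies at -0.04 beside Mir708 at 5.26, and none of the 6 members of the miR-15 and miR-16 group is filled.

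Most members with a host gene lay in its introns. Of 110 members, 51 lay on the same strand inside a protein-coding gene (48 in introns, 3 in exons), 13 lay opposite such a gene alone, and 46 in neither place. Of the 47 different hosts, 6 had enough counts to test, so hosts and microRNAs were not compared.

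The imprinted Dlk1-Dio3 region on chromosome 12, expressed from the maternal allele, is a long array of microRNAs active in embryo, muscle and brain. Of 43 genes listed for it, 11 were members and 10 were tested. The 11 members together held 1.39% ± 0.151 of microRNA counts in controls and 1.94% ± 0.249 in knockouts. Mir434, Mir411, Mir541 and Mir300 rose and 0 fell, where 25.7% of all 136 rows rose, and 9 of 10 were positive, as were 98 of the 136. Under TMM factors over microRNA rows 2 were called up and 6 were positive (71 of the 136 rows), and without Mir143 in the total 3 were called up and 8 were positive (84 of the 136). The call of Mir300 held in 6 of the 14 alternatives. The median log2 fold change over the 10 was 0.90, against 0.44 over all rows.

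Mir434 held 0.103%, 0.0565% and 0.0971% in controls and 0.335%, 0.206%, 0.216% and 0.1601% in knockouts, and rose by 1.41 ± 0.31 (adjusted p = 0.00854, edgeR). Like Mir127 it lies opposite an exon of Rtl1, and without a stated strand setting reads of both strands cannot be told apart. Mir411 held 0.166%, 0.129% and 0.163% in controls and 0.289%, 0.334%, 0.249% and 0.253% in knockouts, and rose by 0.88 ± 0.21. Mir127, by far the most abundant microRNA of the region here, had a log2 fold change of 0.26 ± 0.18 and did not pass.

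On the X chromosome, Mir322 and Mir351 are neighbours, both known from muscle differentiation. Their log2 ratio within a library was 0.11, 0.52 and 0.38 in controls and -0.50, -0.04, -0.26 and -0.24 in knockouts, which did not overlap, the 1 such case among 10 pairs compared. Neither passed on its own, Mir322 at 0.00 ± 0.25 and Mir351 at 0.62 ± 0.32. Within-library ratios of this kind do not depend on the total used for scaling.

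Lists of microRNAs by known role gave few members for muscle itself. Of 12 muscle microRNAs, 3 were members, Mir378a, Mir378c and Mir378d, and 0 passed (-0.05 ± 0.18, -0.30 ± 0.31 and -0.51 ± 0.20). Under TMM factors over microRNA rows 1 of the 3 was called down, as was 1 without Mir143 in the total. Mir1a-1 and Mir1a-2, which encode the most abundant microRNA of heart muscle, had 19 and 2 counts over all libraries, and Mir133a-1 and Mir133a-2 had 22 and 6. Each pair has near-identical mature strands, and the labels do not say how reads that fit several places were counted.

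Of the 2 smooth muscle microRNAs that were members, Mir143 fell and Mir145a did not pass. Under TMM factors over microRNA rows both were called down, and without Mir143 in the total 1 was. Of the 7 tested microRNAs that had been reported in mitochondria, Mir34a rose, Mir146 and Mir181a-2 fell, and Mir181c, Mir181a-1, Mir181d and Mir378a did not pass. The median of the list was -0.05, against 0.44 over all microRNA rows tested. Under TMM factors over microRNA rows 0 of the 7 were called up and 3 down. The median there was -0.40, against 0.06 over all rows. Without Mir143 in the total 1 was called up and 2 down, with a median of -0.25, against 0.23 over all rows. Of 11 tested microRNAs of vascular and growth control, 6 rose (Mir221, Mir222, Mir125b-2, Mir99a, Mir23b and Mir27b) and 0 fell. Over all 136 rows 25.7% rose and 4.41% fell. The median of the list was 0.54, against 0.44 over all rows. Under TMM factors over microRNA rows 3 were called up and 2 down (14% and 13.2% of rows). Without Mir143 in the total 3 were called up and 0 down (16.9% and 7.35% of rows). Of 15 tested microRNAs of cardiac growth and fibrosis, 14 of them members, 4 rose (Mir221, Mir222, Mir34a and Mir132), 2 fell (Mir146 and Mir26b), and the median was 0.45, against 0.44 over all rows. Under TMM factors over microRNA rows 2 of the 15 were called up and 2 down, with a median of 0.06. Mir132, known to promote cardiac hypertrophy, went from 0.0237% ± 0.0021 to 0.0436% ± 0.00458 and rose by 0.88 ± 0.20 (adjusted p = 0.0107, edgeR), a call that held in 10 of the 14 alternatives.

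Among marker lists of the cells the preparation could hold, those of blood overlapped between groups in their summed shares, though not every row in them was level. The 3 erythroid microRNAs summed to 1.18% to 3.64% of the pool in controls and 1.17% to 3.02% in knockouts, and 0 of 3 passed. The white blood cell microRNAs, with Mir223 at 0, summed to 0.776% to 1.21% and 0.556% to 2.27%, and of the 2 tested Mir150 fell by 0.96 ± 0.20 and Mir142 was at 0.65 ± 0.50. The 2 endothelial rows (Mir126a and Mir126b) and the 3 fibroblast rows (Mir199a-1, Mir199a-2 and Mir214) were at 0 in all libraries. The strand setting and the counting of multiply mapping reads are not given, so these 0 values and that of Mir223 do not show absence. Cardiomyocyte microRNAs, at 0.264% to 0.417% and 0.449% to 0.981%, did not overlap, and of the 3 Mir208b rose by 3.10 ± 0.55, while Mir208a was at 0.13 ± 0.22 and Mir499 at -0.68 ± 0.23 (adjusted p = 0.0514, edgeR). Without Mir208b the list summed to 0.231% to 0.357% in controls and 0.217% to 0.282% in knockouts, which overlapped. The part of these cells in the members' changes was not tested.

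A pair of members varied with the library rather than the group. Mir6240 held 0.787%, 5.95% and 0.687% in controls 1 to 3 and 0.445%, 0.154%, 0.704% and 8.59% in knockouts 1 to 4. Mir6236 held 0.0870%, 0.740% and 0.119% in controls and 0.173%, 0.115%, 0.240% and 1.71% in knockouts. For both, control 2 and knockout 4 were the high libraries, and these were also the libraries with the least microRNA, at 1.93% and 2.17% of all counts against 4.80% to 19.3% in the other five. Mir6238, just below the threshold, had 33 and 30 of its 67 counts in the same libraries. Without control 2 and knockout 4, 25 members passed in the fit to microRNA rows (22.8% of rows), 24 of them among the 31.

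**Figure D5:**
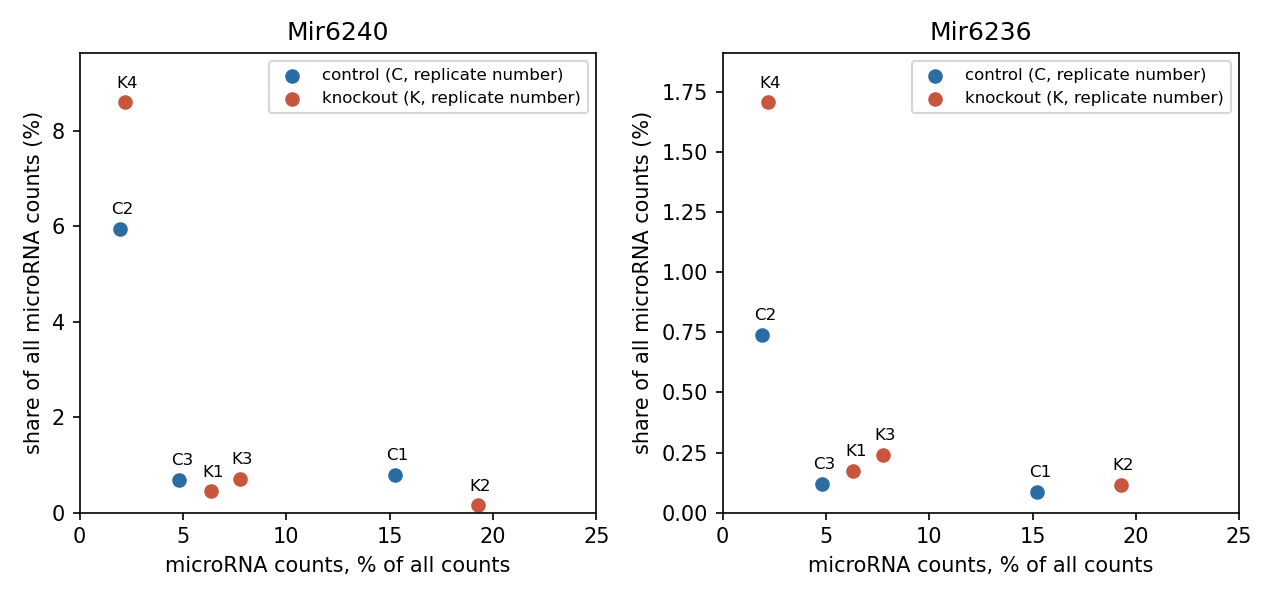
Share of microRNA counts held by Mir6240 and Mir6236 (percent) against the percentage of all counts in microRNA rows, 1 point per library, labelled C for control and K for knockout with the replicate number. Control 2 and knockout 4 lie alone at the upper left, with Mir6240 at 5.95% and 8.59%.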

How the data were processed

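Raw counts per gene for 7 small RNA libraries (3 control, 4 knockout) were made and deposited by the authors. Per the labels' protocols, RNA came from crude heart mitochondria (miRNeasy kit, Illumina small RNA kit, MiSeq, single end). The submitters' processing notes name DESeq2 1.14.1, R 3.3.2, featureCounts, Bowtie2, cutadapt 1.10, bedtools and SAMtools 1.3.1, and the build mm10, without saying which did what. The notes do not give the annotation release, the strand setting or how multiply mapping reads were counted. Their own comparison, the authors' deposited table of log2 fold changes and p-values with adjusted p-values, was quoted beside the results only. The deposited normalised values were not used here.

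Shares were counts over a library's total of miRNA rows. Counts were tested with edgeR 4.0.16 (quasi-likelihood, two-sided, R 4.3.3) with that total as library size, after a low-count filter (minimum count 10), and Benjamini-Hochberg adjustment over all 1505 features, or over 136 microRNA rows in the fit to microRNA rows. DESeq2 1.42.0, other scalings, filters, a covariate, the replicate block and leaving out each library were alternatives. The 14 alternatives of the fit to microRNA rows were all added after the data were seen. Summaries used Python 3.11.15, numpy 2.4.6, pandas 2.3.3 and scipy 1.17.1. The fits were tested on simulated data, where the fit over all features missed changes of a size that the fit to microRNA rows mostly found. Those counts were drawn with the microRNA total as the true scale and with as many features raised as lowered. They therefore cannot show how calls depend on the total in use. Intervals and the limit for a count of 0 (3 counts) cover counting error only. Replicate libraries differed well beyond sampling noise (chi-square per degree of freedom 20.1 to 181).

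All 110 members matched GENCODE M21 (GRCm38). Members, lists and tests were chosen with earlier results of these data known. Members were named for abundance (12), for the 6 highest and 6 lowest changes without overlap, for lists (muscle, smooth muscle, reported in mitochondria), and for seed groups and clusters; other called members were named after their values were seen.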

Additional observations from a re-analysis of the deposited data

Results flagged for a closer look

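Of 28 values looked at in the 4 knockout libraries, 2 had a single library whose gap to its nearest neighbour passed Dixon's 95% critical share of the group's range, and chance gives about 1 such value in 20. The share of Mir181a-2 in knockout 4 was 0.0756%, under the 0.111% to 0.115% of the other knockouts (gap 0.893 of the range). The share of Mir6240 in knockout 4 was 8.59%, above the 0.154% to 0.704% of the others (gap 0.935 of the range). Mir181a-2 was still called in edgeR's fit to microRNA rows without knockout 4.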

How the results depend on the processing

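Counts of calls over all features depended on the scale and the tool. Against 0 calls in edgeR's quasi-likelihood test on the microRNA scale (28 features at an unadjusted p under 0.05), there were 105 with TMM scaling, 11 with total counts, 118 with DESeq2 size factors, 4 with DESeq2's test, 4 without the low-count filter, 41 among microRNA rows alone and 368 with the covariate. Members called, 0 at first, numbered 1 with total counts, 1 with DESeq2's test, 31 among microRNA rows alone and 28 with the covariate. The median log2 fold change of members, 0.32, was 0.68 with total counts and -0.059 with TMM factors over microRNA rows. The difference in summed share, -2.80 points, was 1.39 points without Mir143 in the total and 0.944 points as a share of all counts. Members without overlap, 41, numbered 2 as shares of all counts, 0 as TMM-scaled CPM and 62 without control 2 and knockout 4. In the fit to microRNA rows, leaving out 1 library gave 20 to 33 members called: 20 without control 1, 20 without control 2 and 20 without control 3. The causes of these shifts were not tested.

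Of 559 values of 27 named members, 539 kept their sign; 20 in 6 members did not, and none of the 6 was called in the fit to microRNA rows. Mir127 was at -0.10, Mir151 at -0.35 and Mir99b at -0.25 with TMM factors over microRNA rows. Without Mir143 in the total Mir151 was at -0.19 and Mir99b at -0.074. Mir378a was at 0.058 with TMM, 0.36 with total counts and 0.071 with DESeq2 size factors, and Mir674 at 0.047 with total counts. Mir6240 was at 0.055 without the rows Mir6240, Mir6236, Mir1983 and Mir5099 and 0.052 without Snord43 in the total. Leaving out 1 library gave -0.043 to 0.11 for Mir151, -0.18 to 0.066 for Mir378a, -2.51 to 1.75 for Mir6240 and -0.052 to 0.31 for Mir99b.

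Replicate numbers did not pair the samples: deviations of same-numbered libraries correlated at 0.518, -0.779 and 0.30 over all features. With the replicate block 0 features and 0 members were called over all features, and 23 members among microRNA rows, where the call of Mir143 was lost. Knockout 4, with 22486 microRNA counts, limits the least abundant members.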
